A study of Homo sapiens with 28 samples.

Results

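The 39 genes of the HOX clusters were followed across 4 human liver tumour cell lines. They are every symbol of the assay made of HOX, a cluster letter from A to D and a paralogue number, 39 of 18961 measured amplicons. 11 belong to HOXA, 10 to HOXB, 9 to HOXC and 9 to HOXD, and 21 of the 39 passed the expression filter and were tested. HOX genes encode homeodomain transcription factors that give cells their position along the head-to-tail axis of the embryo. Within a cluster the genes lie in the order of their expression along that axis, with low paralogue numbers at the head end and high numbers at the tail end. Cells keep their HOX pattern through many divisions, with Polycomb complexes holding silent members off and MLL complexes keeping active members on.

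The carcinoma lines were PLC/PRF/5, HuH7 and Hep3B, and HepG2 came from a hepatoblastoma, a liver tumour of childhood. Each was measured as tumours grown in ovo, in 4 libraries, and as cells grown in vitro, in 3 libraries, 28 libraries in all. For the tumours, cells were set on the chorioallantoic membrane of the chick egg at embryonic day 9, and the nodules were removed at day 18. Whether the replicates came from separate cultures or eggs, and whether chick tissue was cut away, is not given in the sources used here, so the p-values measure the spread between libraries. The question asked of these genes was which clusters were active in each line and whether the pattern of a line held in ovo.

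All 4 lines are labelled as hepatoma cells. Depth was 6085750 to 15086465 reads in the in ovo libraries and 6205368 to 8662998 reads in the in vitro libraries. Levels are scaled CPM, the reads of an amplicon per 1000000 reads of the library after TMM scaling, which sets libraries to a common middle. 3 reads, the count taken as the floor, stood for 0.251 to 0.806 scaled CPM, and such floors cover counting error only. Tumour RNA was extracted with a Midi RNeasy kit and culture RNA with a Mini RNeasy kit, so kit and condition cannot be told apart. All 12 hepatocyte and hepatoma markers were read at 1 CPM or more in every HepG2 and Hep3B library and every HuH7 culture, and 11 of 12 in every HuH7 tumour. In PLC/PRF/5, 10 of 12 reached that level in the tumours, with a summed level of 839 to 2176 scaled CPM, against 5 of 12 and 26.6 to 34.7 scaled CPM in the cultures. The part of that difference in any HOX result was not tested. In bulk RNA, fewer expressing cells and less RNA per cell cannot be told apart.

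Each HOX gene was read through 1 amplicon of 73 to 201 bases. 30 of the 39 amplicons lay within 1 exon, and 9 crossed an exon junction (HOXA5, HOXA6, HOXA13, HOXB6, HOXB13, HOXC8, HOXC12, HOXC13 and HOXD9). An amplicon within 1 exon has the same letters in RNA and in genomic DNA, while one that crosses a junction has them only in spliced RNA. 7 amplicons are printed because the line differences and the responses described below turn on them. They were matched to GENCODE 29 transcripts on GRCh38, and capitals mark the bases of the downstream exon, so that the junction lies where the capitals start. All 7 lie in coding sequence. HOXA13 covers chr7:27198410-27199233 on the minus strand, with 713 intron bases skipped, HOXA6 covers chr7:27145766-27147341 on the minus strand, with 1390 skipped, and HOXB13 covers chr17:48726935-48728041 on the minus strand, with 949 skipped. HOXC13 covers chr12:53939563-53945030 on the plus strand, with 5357 skipped, and HOXD9 covers chr2:176123503-176123972 on the plus strand, with 348 skipped. HOXA7 (chr7:27155083-27155200, minus strand) and HOXA10 (chr7:27171914-27172031, minus strand) lie within 1 exon, the last exon of their transcripts, and have no capitals.
HOXA6: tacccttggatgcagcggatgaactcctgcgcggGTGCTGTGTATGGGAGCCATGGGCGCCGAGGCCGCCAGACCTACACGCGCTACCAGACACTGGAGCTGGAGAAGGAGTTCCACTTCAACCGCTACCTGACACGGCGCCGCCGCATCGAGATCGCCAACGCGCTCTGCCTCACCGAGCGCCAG
HOXA7: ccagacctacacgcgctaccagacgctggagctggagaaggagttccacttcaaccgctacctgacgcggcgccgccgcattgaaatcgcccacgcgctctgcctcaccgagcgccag
HOXA10: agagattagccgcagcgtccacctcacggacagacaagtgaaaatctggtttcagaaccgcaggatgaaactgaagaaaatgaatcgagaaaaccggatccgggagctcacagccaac
HOXA13: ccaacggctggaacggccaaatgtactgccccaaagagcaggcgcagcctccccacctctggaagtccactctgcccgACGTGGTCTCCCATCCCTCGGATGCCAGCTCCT
HOXB13: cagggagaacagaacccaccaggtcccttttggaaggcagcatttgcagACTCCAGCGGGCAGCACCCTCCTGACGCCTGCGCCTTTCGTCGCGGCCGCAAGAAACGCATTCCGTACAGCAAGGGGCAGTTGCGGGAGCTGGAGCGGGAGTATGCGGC
HOXC13: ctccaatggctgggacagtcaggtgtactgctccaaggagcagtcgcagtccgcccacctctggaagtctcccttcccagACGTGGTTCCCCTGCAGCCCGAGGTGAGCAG
HOXD9: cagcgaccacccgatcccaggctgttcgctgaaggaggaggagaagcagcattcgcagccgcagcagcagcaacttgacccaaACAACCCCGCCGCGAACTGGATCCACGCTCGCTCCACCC

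Several amplicons share letters with another gene. The HOXA7 amplicon is identical, on the opposite strand, to 118 bases of the antisense RNA HOXA-AS3, and 113 of its 118 bases (95.8%) match HOXA6. The HOXD1 amplicon likewise lies whole, on the opposite strand, in the gene model AC009336.3. Whether the reads were counted by strand is not given in the sources used here. HOXA7 and HOXA-AS3 thus cannot be told apart, and neither can HOXD1 and AC009336.3. 16 of the 39 amplicons lay under an antisense gene model, and 5 matched another gene exactly on the same strand, HOXA4, HOXC5, HOXD3, HOXD4 and HOXD11. Levels were compared between samples and not between genes.

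Olfactory receptor genes, which liver cells should not express, gave a measure of stray reads. Of their 386 amplicons within 1 exon, 5.70% to 51.8% had at least 1 read in the 16 in ovo libraries (median 23.6%), against 2.07% to 8.03% in the 12 in vitro libraries (median 3.76%). HOX amplicons within 1 exon that were not active in a line averaged 0.0375 to 0.435 scaled CPM in ovo and 0.0343 to 0.174 in vitro. These amplicons include HOXC5 in HuH7, up to 3.43 in the tumours, and HOXC10 in Hep3B, up to 2.56 in the tumours. The highest olfactory share, 51.8%, was in HepG2 in ovo replicate 2, where 19 of 25 HOX amplicons within 1 exon that were not active had a read, against 3 to 6 of 25 in the HepG2 cultures. The olfactory share did not overlap between tumours and cultures in any line. The HOX level did not overlap in HepG2, HuH7 and PLC/PRF/5, but did in Hep3B, at 0.0375 to 0.308 in ovo and 0.0574 to 0.0663 in vitro. Junction-crossing HOX amplicons that were not active in a line also had reads, among them HOXA5 at 2.45 scaled CPM in HepG2 in ovo replicate 3. The library means of these amplicons reached 0.382 scaled CPM in ovo and 0.0459 in vitro in HepG2, and 0.288 and 0.0829 in Hep3B. In HuH7 they reached 0.572 and 0.0726, and in PLC/PRF/5 0.113 and 0.0779. Whether the reads of these olfactory and HOX amplicons within 1 exon came from genomic DNA was not tested. Low expression and stray reads of the HOX amplicons were not told apart.

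A member was counted as active in a group when every library of the group held at least 1 scaled CPM. PLC/PRF/5 had the most active members, 17 in ovo and 13 in vitro, and all 13 of the cultures were among the 17. HuH7 had 14 in ovo and 12 in vitro, all 12 among the 14. HepG2 had 6 in ovo and 5 in vitro, all 5 among the 6. Hep3B had 5 in ovo and 6 in vitro, all 5 among the 6, and the member that was active in its cultures alone was HOXA10. Over all 18961 amplicons the active share was 52.2% in ovo and 53.1% in vitro in PLC/PRF/5, 49.8% and 55.3% in HuH7, 46.4% and 54.6% in Hep3B, and 48.5% and 53.5% in HepG2. 20 members were active in at least 1 group and 19 in none, and HOXA7 alone was active in all 8 groups. With at least 5 scaled CPM asked of every library, the counts were 10 in ovo and 11 in vitro in PLC/PRF/5, 10 and 7 in HuH7, 2 and 2 in Hep3B, and 1 and 2 in HepG2.

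**Figure D1:**
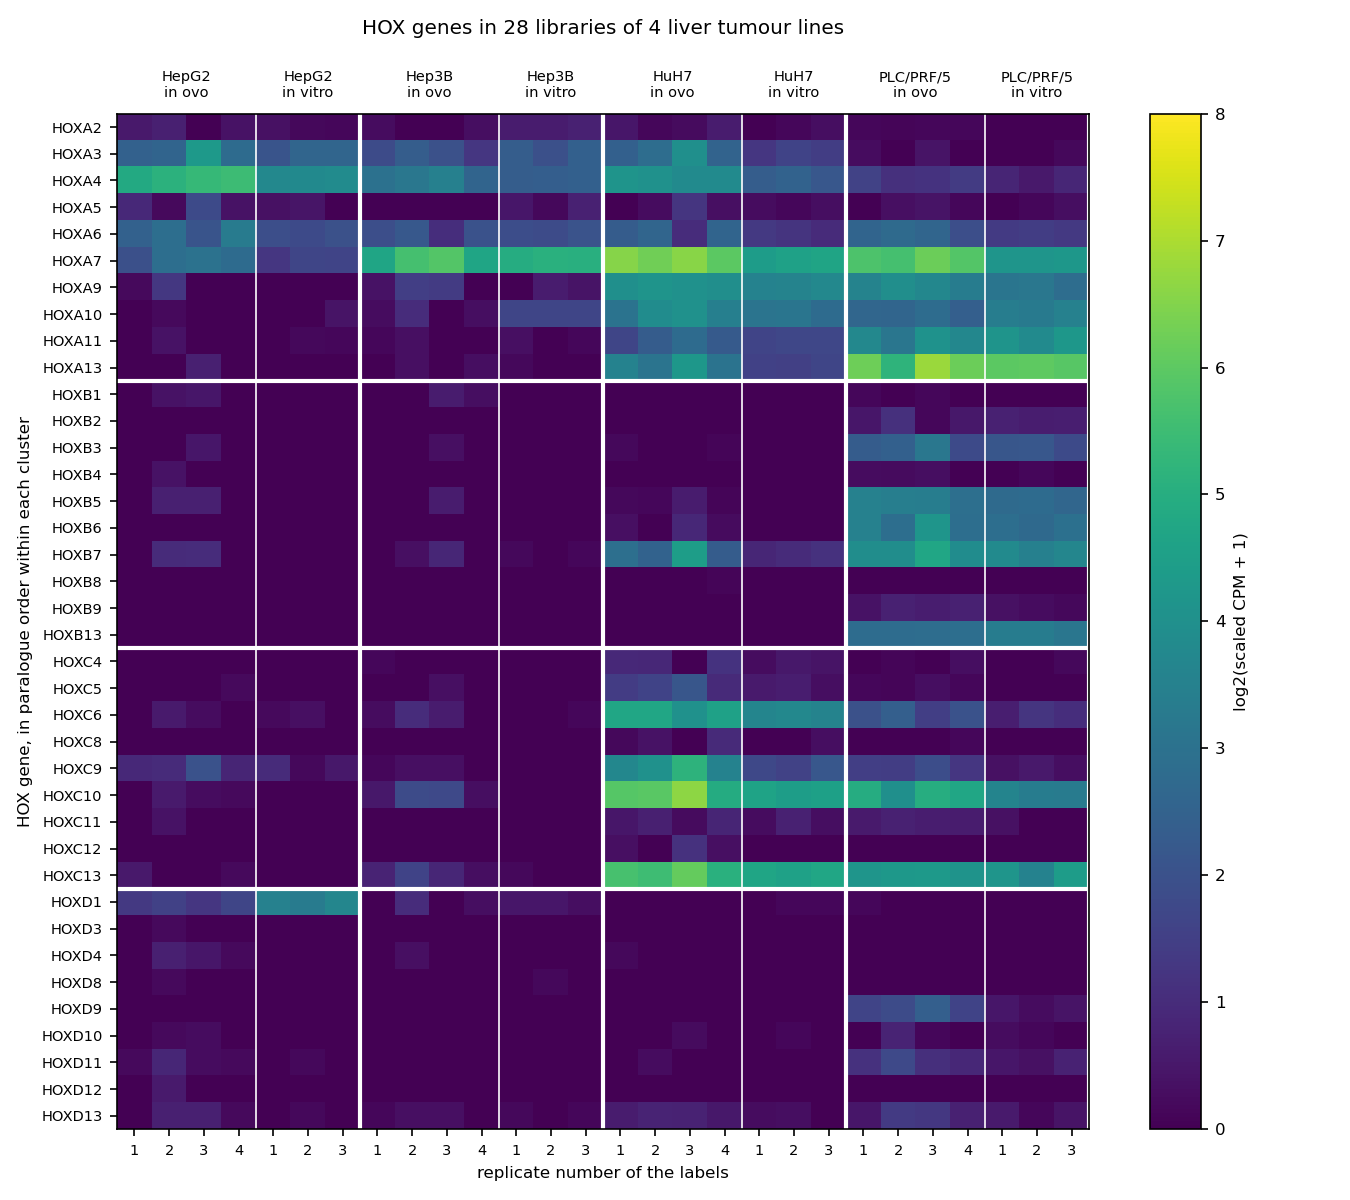
Level of 38 HOX genes (rows, by cluster and paralogue number) in the 28 libraries (columns, by line and condition), as log2(scaled CPM + 1). HepG2 and Hep3B show levels mainly in HOXA rows up to HOXA7, HuH7 adds HOXA9 to HOXA13 and HOXC rows, and PLC/PRF/5 adds HOXB rows while HOXA3 stays near 0.

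The lines differed in which clusters they used. HOXA was active in all 4 lines. In HepG2 and Hep3B HOXA3, HOXA4, HOXA6 and HOXA7 were active in both conditions, with HOXA10 added in the Hep3B cultures, and in HuH7 and PLC/PRF/5 the active members reached to HOXA13. HOXC was active in HuH7 and PLC/PRF/5, HOXB in PLC/PRF/5 and, through HOXB7 in ovo, in HuH7, and HOXD through HOXD1 in HepG2 and HOXD9 in PLC/PRF/5 tumours. Summed over its 9 members, HOXC stood at 155 ± 49.4 scaled CPM in ovo and 62.2 ± 1.97 in vitro in HuH7, and at 48.7 ± 6.70 and 27.4 ± 4.87 in PLC/PRF/5 (SD, n = 4 in ovo and 3 in vitro). In Hep3B the HOXC sum was 0.469 to 5.90 scaled CPM in ovo and 0 to 0.130 in vitro, and in HepG2 1.24 to 3.47 and 0.367 to 1.12. HOXB summed to 48.3 ± 13.2 scaled CPM in ovo and 36.4 ± 2.39 in vitro in PLC/PRF/5, to 9.61 ± 8.43 and 0.991 ± 0.199 in HuH7, and to no more than 2.45 in any HepG2 or Hep3B library. All 10 HOXB genes had 0 reads in all 3 HepG2 cultures.

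**Figure D2:**
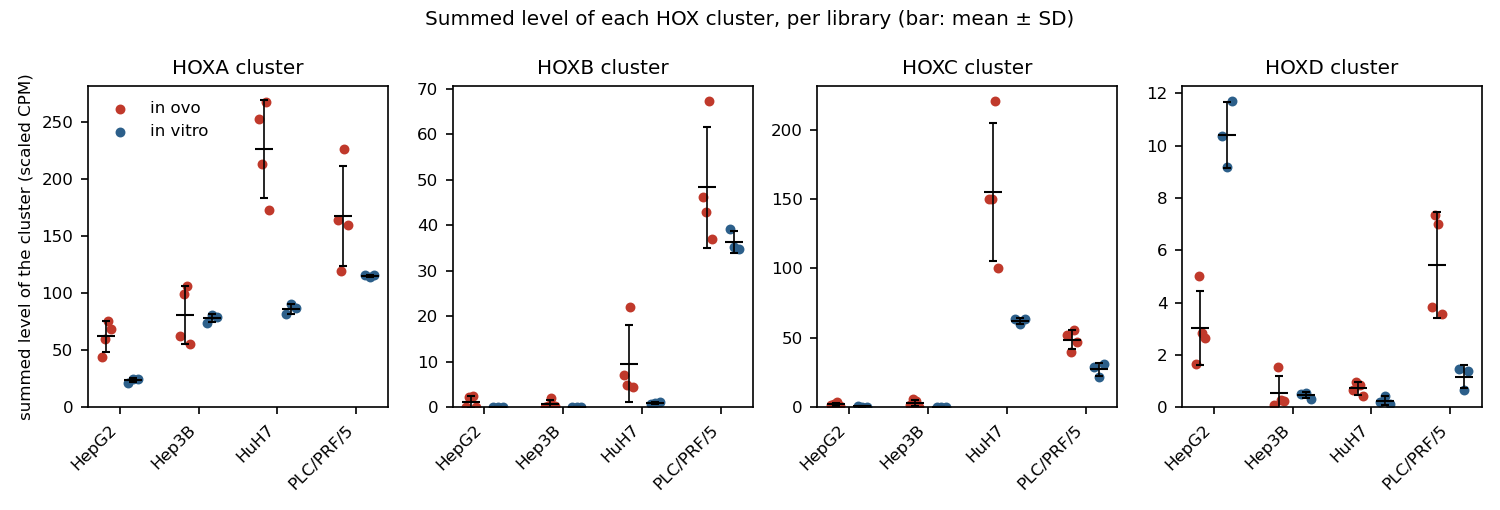
Summed level of each HOX cluster in scaled CPM, 1 point per library, in ovo left of in vitro for each line; bars give the mean ± SD (n = 4 in ovo, 3 in vitro). HOXC was high in HuH7 and PLC/PRF/5, HOXB in PLC/PRF/5, and the HOXD sum of HepG2 was 3.03 ± 1.41 in ovo and 10.4 ± 1.25 in vitro.

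At the head end of HOXA, HOXA4, a paralogue of the neck region, was highest in HepG2, at 28.2, 34.4, 40.0 and 43.7 scaled CPM in the tumours and 12.2, 13 and 13.6 in the cultures. HuH7 came next, at 16.6, 15.4, 13.2 and 13.1 in the tumours and 4.10, 4.67 and 3.48 in the cultures. Hep3B held 6.89, 7.95, 10.2 and 4.92 in the tumours and 4.17, 4.2 and 4.42 in the cultures, and PLC/PRF/5 held 1.17 to 2.01 in ovo and 0.476 to 0.818 in vitro. HOXA3, which acts in the pharyngeal region, was active in HepG2, Hep3B and HuH7 in both conditions and at 0 to 0.340 in PLC/PRF/5. HOXA6 was active in both conditions of all lines but HuH7, whose cultures held 0.980 to 1.5.

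HOXA7, the mid-trunk member that is read together with HOXA-AS3, was active in all groups but at unequal levels. It stood at 92.7, 76.0, 95.2 and 62.5 scaled CPM in HuH7 tumours against 20.6, 22.8 and 24.3 in HuH7 cultures, and at 53.1, 48.9, 72.5 and 56.8 in PLC/PRF/5 tumours against 17.1, 17.1 and 17.9 in PLC/PRF/5 cultures. Hep3B held 25.2, 48.5, 56.4 and 24.8 in ovo and 30.0, 32.6 and 31.8 in vitro, which overlapped. HepG2 was lowest in both conditions, at 2.85, 6.46, 7.14 and 5.88 in ovo and 1.40, 2.20 and 2.10 in vitro.

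The tail-end HOXA genes, which in the embryo pattern limb, hindgut and urogenital regions, were active in HuH7 and PLC/PRF/5. HOXA13, the last gene of the cluster, stood at 74.7, 35.6, 111 and 72.0 scaled CPM in PLC/PRF/5 tumours and 61.9, 64.0 and 60.0 in PLC/PRF/5 cultures, groups that overlapped. HuH7 held 10.7, 7.40, 17.8 and 7.32 in ovo and 1.90, 1.85 and 2.18 in vitro, which did not overlap. HepG2 and Hep3B reached at most 0.612, in HepG2 in ovo replicate 3. HOXA13 is one of the junction-crossing amplicons, and its 713 skipped intron bases are absent from the counted sequence. HOXA11 showed the same order, at 7.85 to 16.0 in ovo and 13.3 to 18 in vitro in PLC/PRF/5, at 2.19 to 6.01 and 2.10 to 2.29 in HuH7, and at no more than 0.323 in HepG2 and Hep3B. HOXA9 stood at 14.6 to 16.6 in ovo and 10.8 to 12.4 in vitro in HuH7, and at 9.20 to 14.4 and 6.19 to 8.09 in PLC/PRF/5. HOXA10 was the exception among these genes in Hep3B, where the tumours held 0 to 1.03 and the cultures 2.17 to 2.22.

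HOXB genes marked PLC/PRF/5. HOXB13, the tail-end gene of this cluster and known for its role in prostate, stood at 6.13, 6.10, 6.23 and 6.49 scaled CPM in PLC/PRF/5 tumours and 9.22, 9.32 and 7.83 in PLC/PRF/5 cultures. Its junction-crossing amplicon had 0 reads in all 21 libraries of the other lines. Against the highest floor of 3 reads per library among them, PLC/PRF/5 was at least 7.74-fold higher in ovo and at least 20.9-fold higher in vitro. HOXB5 stood at 10.6, 9.61, 9.40 and 6.60 in PLC/PRF/5 tumours and 5.82, 5.90 and 5.26 in cultures, and HOXB6 at 10.6, 6.35, 16.9 and 6.39 in tumours and 6.41, 5.61 and 6.66 in cultures. Both had 0 reads in the 9 cultures of the other lines, which put PLC/PRF/5 cultures at least 13.5-fold higher for HOXB5 and at least 14.8-fold higher for HOXB6. In the tumours of the other lines, HOXB5 reached 0.646 and HOXB6 0.858, close to the floor of 3 reads.

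HOXB7, a trunk member, was the HOXB gene that HuH7 shared. PLC/PRF/5 tumours held 14.1, 14.3, 25.7 and 13.9 scaled CPM and PLC/PRF/5 cultures 13.3, 10.1 and 11.8. HuH7 tumours held 6.56, 4.72, 20.8 and 4.00 and HuH7 cultures 0.800, 0.977 and 1.20. The 2 conditions did not overlap in either line, and in both lines the library labelled in ovo replicate 3 was the highest. Without TMM scaling the PLC/PRF/5 conditions did overlap, at 15.3 to 28.1 CPM in ovo and 15.4 to 17.7 in vitro. In PLC/PRF/5 limma did not call the change of HOXB7 (0.46 on the log2 scale, SE 0.36, adjusted p = 0.44). HepG2 and Hep3B reached at most 1.02 in ovo and 0.130 in vitro.

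HOXC genes were led by HuH7. HOXC10, a gene of the lumbar region, stood at 58.8, 60.8, 97.8 and 29.6 scaled CPM in HuH7 tumours and 23.9, 20.9 and 22.5 in HuH7 cultures, and at 29.7, 14.9, 30.8 and 25.5 in PLC/PRF/5 tumours and 11.2, 9.32 and 9.12 in PLC/PRF/5 cultures. HOXC13, the tail-end gene known from hair and nail, was read through a junction and stood at 50.0, 44.4, 67.6 and 33.0 in HuH7 tumours against 24.8, 23.0 and 25.4 in HuH7 cultures. PLC/PRF/5 held 17.2, 18.2, 19.3 and 16.1 of HOXC13 in ovo and 16.9, 10.7 and 20.6 in vitro, which overlapped. HOXC6, a trunk member, stood at 25.6, 25.6, 15.4 and 22.8 in HuH7 tumours and 11.5, 12.4 and 10.9 in HuH7 cultures, and at 2.92, 4.34, 1.81 and 3.03 in PLC/PRF/5 tumours and 0.582, 1.33 and 1.05 in PLC/PRF/5 cultures. HOXC9 stood at 12.1, 15.4, 34.8 and 10.6 in HuH7 tumours and 2.30, 1.95 and 3.48 in HuH7 cultures, and at 1.81, 1.75, 2.72 and 1.41 in PLC/PRF/5 tumours and 0.291, 0.476 and 0.234 in PLC/PRF/5 cultures. The HuH7 conditions of HOXC10, HOXC13, HOXC6 and HOXC9 did not overlap, and neither did those of PLC/PRF/5 for HOXC10, HOXC6 and HOXC9. The share of all genes without overlap was not counted, so this describes these members alone. In Hep3B, HOXC10 was at 0.234 to 2.56 in ovo and at 0 in all cultures, and HOXC13 at 0.234 to 2.05 in ovo and 0 to 0.130 in vitro.

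Of the HOXD genes, HOXD1 was active in HepG2 and HOXD9 in PLC/PRF/5 tumours. HOXD1, the head-end gene of the cluster, stood at 1.5, 1.94, 1.43 and 2.17 scaled CPM in HepG2 tumours and 10.4, 8.94 and 11.7 in HepG2 cultures. The groups did not overlap, and no library of another line exceeded 1.03. HOXD9, read through a junction, stood at 2.11, 2.59, 4.30 and 2.06 in PLC/PRF/5 tumours and 0.388, 0.190 and 0.351 in PLC/PRF/5 cultures, with 0 reads in all 21 libraries of the other lines. PLC/PRF/5 tumours were at least 3.43-fold higher than the highest floor of the other tumours. HOXD13, at the tail end, was a trace, at 0.402 to 1.59 in PLC/PRF/5 tumours and 0.0951 to 0.485 in cultures, at 0.425 to 0.751 in HuH7 tumours and 0 to 0.217 in cultures, and at no more than 0.646 elsewhere. It did not pass the filter.

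Each line was then compared with the mean of the other 3 lines, within 1 condition, in 1 fit over 13100 genes. In PLC/PRF/5, 13 of 21 tested HOX genes were higher and 5 lower in ovo, where 69.5% of all genes tested were called (35.2% higher, 34.3% lower). In the PLC/PRF/5 cultures 12 were higher and 4 lower, where 55.1% were called (24.6% higher, 30.4% lower). In HuH7, 14 were higher and 6 lower in ovo (57.0% of all genes, 29.9% higher and 27.1% lower), and 9 higher and 5 lower in vitro (44.1%, 23.5% and 20.7%). In Hep3B, 1 was higher and 17 lower in ovo (61.2%, 26.2% and 35.0%), and 3 higher and 14 lower in vitro (40.6%, 19.5% and 21.1%). In HepG2, 3 were higher and 17 lower in ovo (54.0%, 23.7% and 30.3%), and 3 higher and 14 lower in vitro (50.2%, 24.1% and 26.1%). The HOX pattern of HepG2 and Hep3B against the other lines was thus mostly one of lower members. A gene needed reads in some group to pass the filter, so these counts describe the members and are no evidence that HOX genes differ more than others. A line also came out lower where a single other line was high, as for HOXD9 in HepG2, Hep3B and HuH7. By edgeR's count test the call counts were 13 for HepG2 in ovo and 6 for Hep3B in vitro, and by DESeq2 11 for Hep3B in vitro.

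The size of the line differences is given for a few members, most of them chosen for being called in both conditions, so that their shared direction is part of the choice and no test of it. HOXA13 was 4.84 ± 0.22 (log2, SE) higher in PLC/PRF/5 than in the other lines in ovo and 5.43 ± 0.25 higher in vitro. HOXB13 was 2.86 higher there in ovo and 3.29 in vitro. The libraries of the other lines, all at 0 reads for HOXB13, enter the spread of its fit, so no SE is given. HOXC10 was 3.84 ± 0.26 higher in HuH7 in ovo and 3.4 ± 0.30 in vitro, HOXC13 3.83 ± 0.19 and 3.30 ± 0.22, and HOXC6 3.63 ± 0.18 and 3.25 ± 0.21. In HepG2, HOXA4 was 2.44 ± 0.15 higher in ovo and 1.97 ± 0.18 in vitro, and HOXD1 1.33 in ovo and 3.32 in vitro. No SE is given for HOXD1, which had 0 to 4 reads per library in the other lines. These are differences of log2(scaled CPM + 1), a scale that understates the fold of genes near 1 CPM.

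Across the 21 members, line differences in ovo and in vitro, which share no library, ran together. 17 members in HepG2, 16 in PLC/PRF/5, 14 in Hep3B and 14 in HuH7 were called in the same direction in both conditions, and 0 in opposite directions in any line by limma's adjusted p. Of those called the same way, 14 in HepG2 and 13 in Hep3B were lower, against 4 in PLC/PRF/5 and 5 in HuH7. HOXB13, at 0 outside PLC/PRF/5, gave each other line -1.10 in vitro and -0.95 in ovo. Members read in another line alone agree in this way by their absence, so the counts are a description. The count of opposite directions was also 0 by limma's unadjusted p under 0.05, by edgeR's test and by DESeq2's. Called or not, the difference had the same sign in both conditions for 21 members in HepG2, 19 in PLC/PRF/5, 18 in Hep3B and 18 in HuH7. Over all genes tested, the share called the same way was 35.3% for HepG2, 46.7% for PLC/PRF/5, 28.9% for Hep3B and 34.3% for HuH7, and the share called opposite ways was 2.06%, 0.916%, 2.55% and 1.89%. Pearson's r between the 2 sets of differences over the 21 members was 0.941 for HepG2, 0.928 for HuH7, 0.964 for PLC/PRF/5 and 0.919 for Hep3B, against 0.812, 0.778, 0.889 and 0.678 over all 13100 genes. The points share libraries within a condition, and members near 0 in several lines add to r, so r is a description. Of the members' variation in log2(scaled CPM + 1), 89.8% lay between lines, 4.06% between conditions, 2.91% in line by condition and 3.26% within groups. Over all genes tested the shares were 72.1%, 9.40%, 7.60% and 10.9%. For all 28 libraries, the library nearest by these members was of the same line and condition, as it was by all genes.

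**Figure D3:**
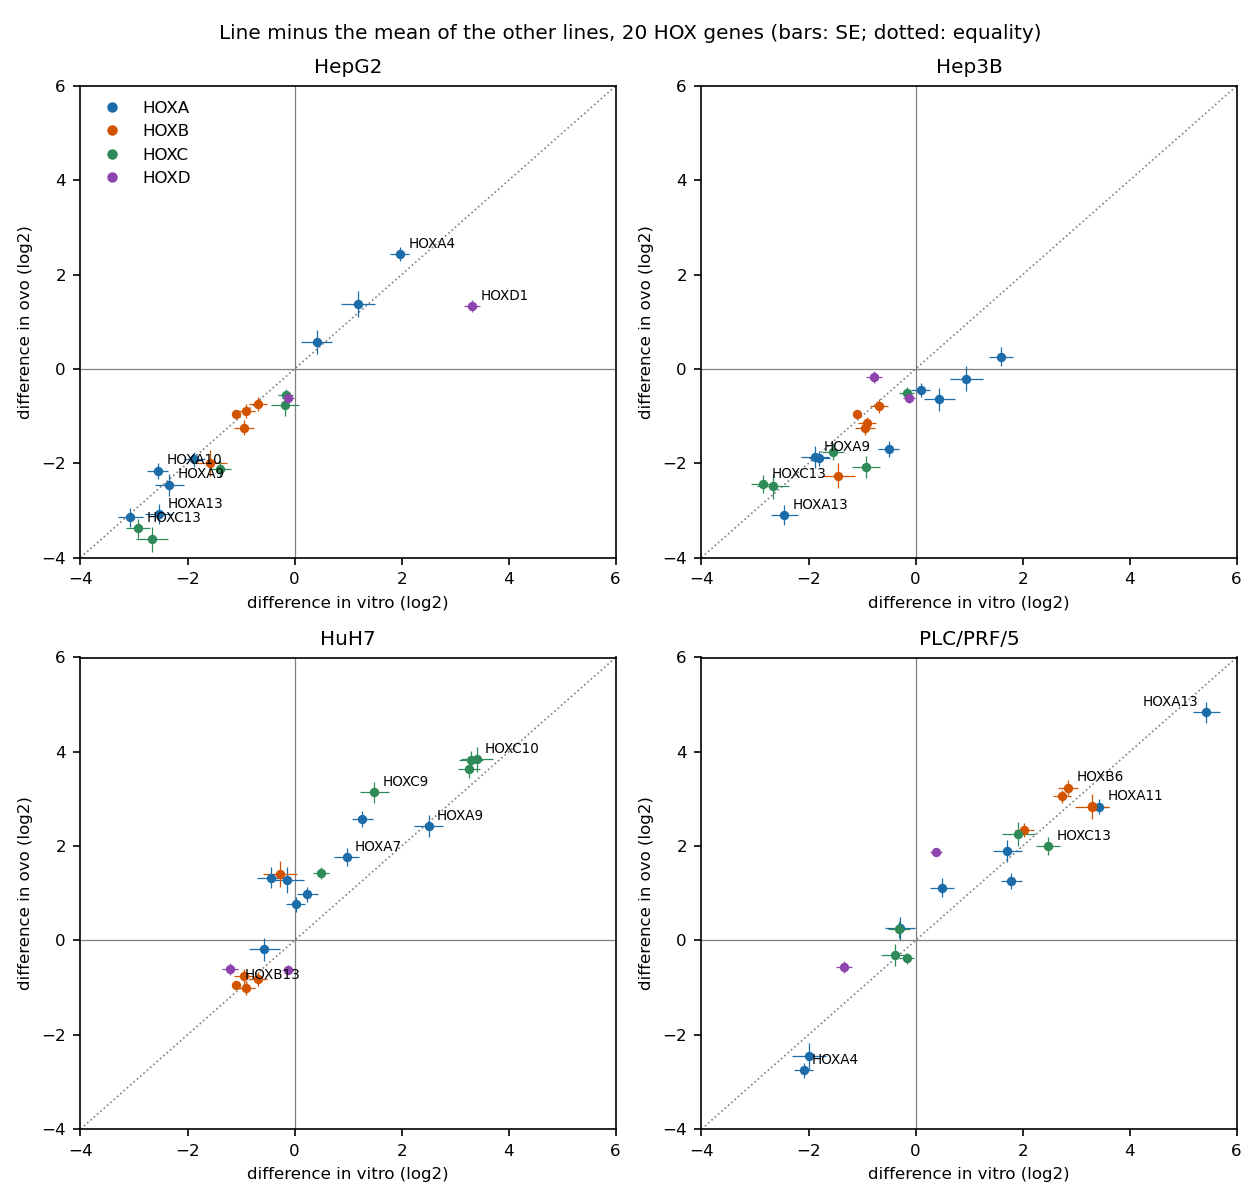
Line differences (a line minus the mean of the rest) in ovo on the vertical axis and in vitro on the horizontal axis, in log2(scaled CPM + 1), for 20 of the 21 HOX genes tested; bars are SE and the dotted line marks equality. Differences in ovo rose with those in vitro in each panel, but some points lie off the dotted line. HOXA13 in HuH7 was at -0.44 in vitro and 1.33 in ovo, and HOXA7 in Hep3B at 1.59 and 0.26. HOXD1 lies farthest below the line, in HepG2.

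The in ovo and in vitro libraries of each line were compared next. HuH7 had the most called HOX genes, with 14 of 21 higher in ovo and 0 lower, where 43.4% of all genes tested were called, 23.9% higher and 19.5% lower. The 14 include HOXC5, which passed the filter through the HuH7 tumours alone. The count of lower members in HuH7 was also 0 by limma's unadjusted p under 0.05, by edgeR's test and by DESeq2's. PLC/PRF/5 had 7 higher and 2 lower (17.3% of all genes called, 11.7% higher and 5.62% lower). Its counts include HOXD9 as higher and HOXB13 as lower, both at 0 reads in every other line, whose libraries enter their spread. Hep3B had 3 higher and 1 lower (52.0%, 25.3% and 26.7%), and HepG2 3 higher and 1 lower (25.0%, 12.6% and 12.4%). Set against those shares of all genes, called members were more frequent in HuH7 and PLC/PRF/5 and less frequent in Hep3B, by limma, edgeR and DESeq2, a difference that was not tested. In HepG2 the order turned with the tool, with 4 of 21 members called by limma, 6 by edgeR and 8 by DESeq2, against 3280, 3184 and 3718 of 13100 genes. The median change of the 21 members was 0.93 in HuH7, 0.46 in PLC/PRF/5, 0.09 in Hep3B and 0.19 in HepG2 on the log2 scale, against 0.02 (HuH7), 0.07 (PLC/PRF/5), -0.03 (Hep3B) and 0 (HepG2) over all genes tested. With scaling by total counts alone, the median of all genes shifted by -0.15 in HuH7, -0.14 in PLC/PRF/5, -0.71 in Hep3B and -0.18 in HepG2. Olfactory amplicons with a read stood at 21.2% to 31.9% in ovo and 5.96% to 8.03% in vitro in HuH7, and in PLC/PRF/5 at 11.4% to 46.1% and 2.07% to 3.63%. In HuH7, 4 of 8 fibroblast markers were read at 1 CPM or more in both conditions, with a summed level of 553 to 862 scaled CPM in ovo and 348 to 368 in vitro, and the 12 hepatocyte markers summed to 4973 to 8245 in ovo and 19237 to 19894 in vitro. The part of these differences in the HOX changes was not tested.

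In HuH7, limma's adjusted p called gains along HOXA up to its tail end and across HOXC. HOXC9 rose by 2.30 ± 0.30 (log2, SE; adjusted p = 2.06e-06), HOXB7 by 2.06 ± 0.36 (adjusted p = 8.36e-05) and HOXA13 by 1.91 ± 0.29 (adjusted p = 1.27e-05). HOXA7 rose by 1.79 ± 0.26, HOXA4 by 1.62 ± 0.20, HOXC10 by 1.30 ± 0.35, HOXC13 by 0.93 ± 0.26 and HOXC6 by 0.87 ± 0.24. HOXA3 and HOXA6 also rose. The call of HOXA6 was lost without any 1 of 5 HuH7 libraries, in vitro replicate 2 or 3 or in ovo replicate 1, 2 or 4, with total counts alone and with GC and length trends removed. HOXC5 was called as well, but it passed the filter through the HuH7 tumours alone, so its call is no evidence of a rise. It had 13, 19, 20 and 11 reads there and 5, 5 and 2 in the HuH7 cultures. HOXC5 fell under the filter without in ovo replicate 1, 2 or 3 and was then not tested. 11 of the 14 were amplicons within 1 exon, of 15 tested, and 3 crossed a junction, of 6 tested, HOXA6, HOXA13 and HOXC13. Of the junction-crossing members not called, HOXB13 and HOXD9 had no reads in HuH7. HOXB6 had none in the HuH7 cultures and at most 0.858 scaled CPM in the tumours. Of those within 1 exon not called, HOXB3, HOXB5 and HOXD1 reached at most 0.515 in HuH7, while HOXA9 was active. The smallest gains, HOXA10 (0.60 ± 0.23, adjusted p = 0.0345) and HOXA11 (0.59 ± 0.22, adjusted p = 0.0331), were lost without any 1 of 5 HuH7 libraries, in vitro replicate 1, 2 or 3 or in ovo replicate 2 or 3, with adjusted p up to 0.135 and 0.137. With GC and length trends removed, HOXC10, HOXC13 and HOXC6 were not called (adjusted p = 0.216, 0.52 and 0.117). HOXC6 was also not called with total counts alone, with a pseudocount of 0.25 CPM or by edgeR's test.

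In PLC/PRF/5, HOXA7 rose by 1.66 ± 0.26 (adjusted p = 4.74e-05). HOXD9 had 21, 31, 38 and 19 reads in the tumours and 4, 2 and 3 in the cultures. It passed the filter through these tumours alone, and its 21 libraries at 0 enter the spread of the fit over all lines, so its change is given from the PLC/PRF/5 libraries alone, 1.63 on the log2 scale (limma's adjusted p = 0.00165). HOXC10 rose by 1.23 ± 0.35, HOXC9 by 1.12 ± 0.30, HOXC6 by 1.00 ± 0.24 and HOXB5 by 0.58 ± 0.19, and HOXA6 rose as well, a call lost without any 1 of 6 PLC/PRF/5 libraries, in vitro replicate 1, 2 or 3 or in ovo replicate 1, 2 or 3, with total counts alone and with GC and length trends removed. HOXA10 fell by 0.77 on the log2 scale (SE 0.23, adjusted p = 0.0189). HOXA13 differed by 0.13 ± 0.29 (adjusted p = 0.828), which did not pass. HOXB13, also at 0 in the other lines, is likewise given from the PLC/PRF/5 libraries alone, where it fell by 0.51 (limma's adjusted p = 0.036). The fall of HOXB13 was not called by edgeR's test (adjusted p = 0.307) or DESeq2's (0.112), and DESeq2 did not call HOXD9 (0.0573). Without PLC/PRF/5 in vitro replicate 3 the 9 calls became 5, and HOXA6, HOXA10, HOXB5, HOXC9 and HOXC10 were lost, the last 4 with adjusted p of 0.0784, 0.128, 0.0560 and 0.0622. HOXA10 was also lost without in vitro replicate 1 (0.0508) or in ovo replicate 4 (0.057), and HOXC10 without in vitro replicate 2 (0.0624). HOXB5 was lost also without in vitro replicate 1 or 2, without in ovo replicate 1, 2 or 3, or without Hep3B in ovo replicate 2. In 8 of 13 other settings HOXB5 was not called. Among them were edgeR's test (adjusted p = 0.403), DESeq2's (0.32), and limma with a pseudocount of 0.25 CPM (0.347) or the PLC/PRF/5 libraries alone (0.0639).

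HepG2 and Hep3B had few called members, 4 of 21 in each. In HepG2, HOXA4 rose by 1.42 ± 0.20 (adjusted p = 8.01e-06) and HOXA7 by 1.14 ± 0.26 (adjusted p = 0.00194). HOXD1 had 0 to 4 reads per library in the other lines, which enter the spread of the fit over all lines. With the HepG2 libraries alone it fell by 2.03 on the log2 scale (limma's adjusted p = 0.000504). The fit over all lines gave a fall of 2.04, and that call held with each of the 28 libraries left out. By edgeR's test HOXD1 was called too (adjusted p = 0.00103). In Hep3B, HOXA10 fell by 1.28 (SE 0.23, adjusted p = 6.30e-05). HOXC10 and HOXC13 rose by 1.11 ± 0.35 and 0.83 ± 0.26, at the trace levels given above, and both calls were lost with a pseudocount of 5 CPM and with GC and length trends removed (adjusted p = 0.345 and 0.89), and neither gene passed the filter with only the Hep3B libraries fitted. HOXA4 rose by 0.65 ± 0.20 (adjusted p = 0.00933), but was not called without Hep3B in ovo replicate 3 (adjusted p = 0.0571), and with total counts alone its value was -0.20. The number of Hep3B calls was 1 with only the Hep3B libraries fitted and 8 with GC and length trends removed, of which HOXA10 alone was among the 4 reported, and that of HepG2 was 8 by DESeq2's test.

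**Figure D4:**
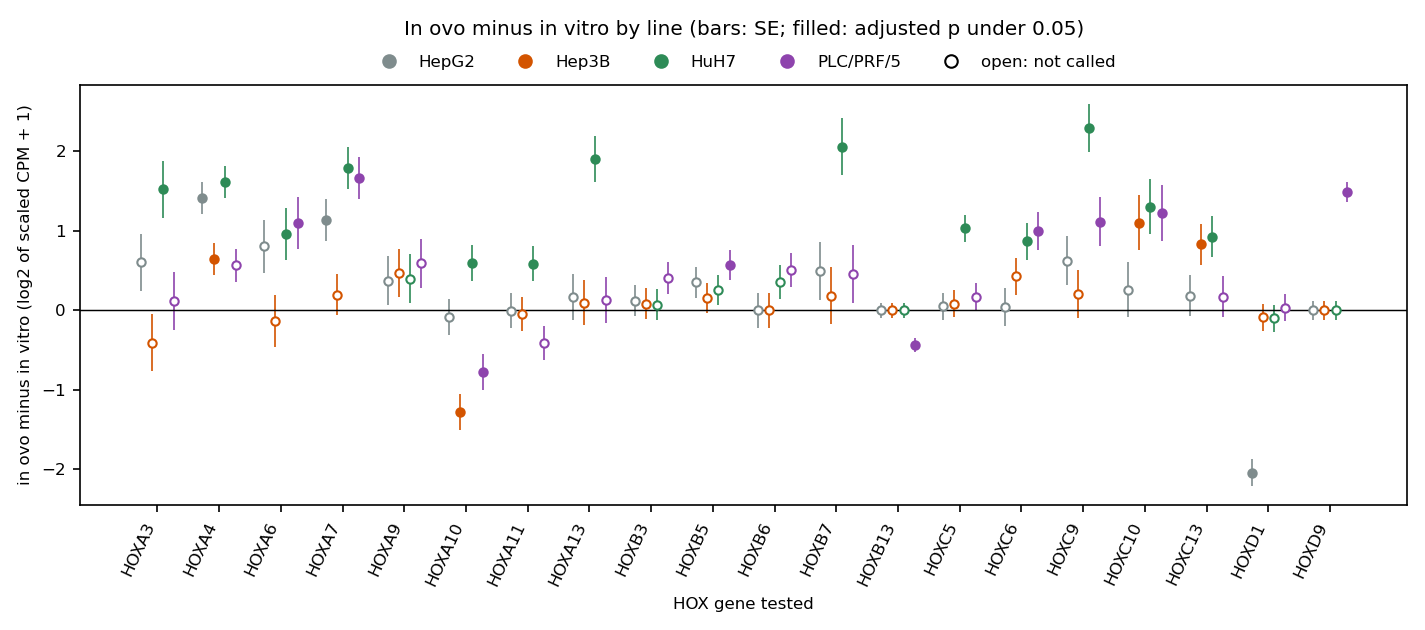
Change of 20 of the 21 tested HOX genes in ovo minus in vitro, in log2(scaled CPM + 1), for each line; bars are SE, and filled points have an adjusted p under 0.05. HuH7 points lie at or above 0 for every gene drawn but HOXD1, HOXD1 of HepG2 lies lowest at -2.04, and HOXA10 lies above 0 in HuH7 and below it in Hep3B and PLC/PRF/5.

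Whether the response differed between lines was tested with a line by condition F test. 12 of 21 members passed it, where 41.7% of all genes tested did, and edgeR's count test called 6. Among them were HOXA3, HOXA4, HOXA7, HOXA10, HOXA13, HOXB7, HOXB13, HOXC5, HOXC9, HOXD1 and HOXD9. For HOXB13 and HOXD9, both read in PLC/PRF/5 alone, the 21 libraries at 0 enter the spread, and their p is not read here. HOXC5 passed the filter through the HuH7 tumours alone, and its p is not read either. HOXD1, which fell in HepG2, had an adjusted p of 1.74e-07 and stood there at -1.99 against the mean response of the other lines. Its 0 to 4 reads per library in those lines enter the spread behind this p. By the contrast with the mean response of the other lines, HuH7 had 9 members higher and 1 lower (19.5% of all genes called, 11.8% higher and 7.66% lower). Hep3B had 1 higher and 7 lower (25.5%, 12.7% and 12.8%). PLC/PRF/5 had 2 higher and 1 lower (17.1%, 9.18% and 7.91%), and HepG2 had 2 lower (20.1%, 7.10% higher and 13.0% lower). In HuH7, Hep3B and HepG2, 1 of the lower members was HOXD9, which had no reads there. HOXD1 was the higher member of Hep3B and 1 of the higher members of HuH7 and PLC/PRF/5. It reached at most 1.03 scaled CPM in those lines, and the mean it was set against included its fall in HepG2. The other higher member of PLC/PRF/5 was HOXD9 and the lower one HOXB13, both read in that line alone. The HuH7 gains of HOXA13 (1.77 ± 0.33), HOXB7 (1.68 ± 0.42) and HOXC9 (1.65 ± 0.35) exceeded those of the other lines by this test. HOXA10 (adjusted p = 0.000199) was called in opposite directions by limma and DESeq2. By edgeR's test the fall in Hep3B alone was called, while the adjusted p was 0.157 in HuH7 and 0.133 in PLC/PRF/5, and likewise with a pseudocount of 0.25 CPM, at 0.19 and 0.153. It stood at 7.20, 13.8, 15.6 and 9.87 scaled CPM in HuH7 tumours and 7.50, 7.71 and 5.99 in HuH7 cultures, which overlapped. PLC/PRF/5 held 5.23, 5.10, 6.12 and 4.33 in ovo and 9.41, 8.75 and 10.4 in vitro, and Hep3B 0.212, 1.03, 0 and 0.234 in ovo and 2.22, 2.17 and 2.21 in vitro, and in both lines the conditions did not overlap. Against the mean response of the other lines, HOXA10 stood at 1.31 ± 0.26 in HuH7 and at -1.19 ± 0.26 in Hep3B, both called, while PLC/PRF/5 was not called (-0.52 ± 0.26, adjusted p = 0.186).

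**Figure D5:**
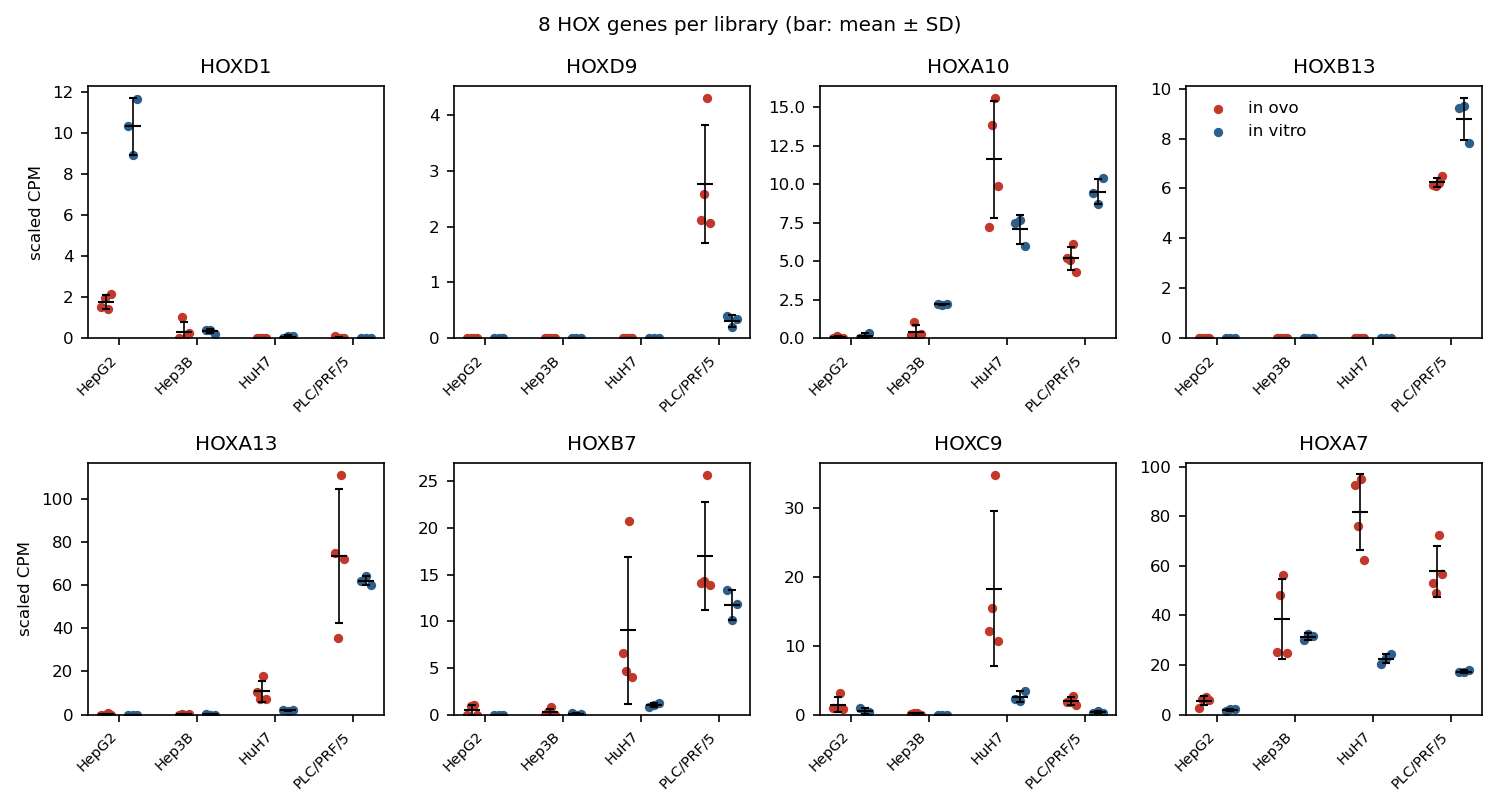
Level of 8 HOX genes in scaled CPM, 1 point per library, in ovo left of in vitro for each line; bars give the mean ± SD (n = 4 in ovo, 3 in vitro). HOXD1 of HepG2 averaged 1.76 in ovo and 10.3 in vitro, HOXB13 was read in PLC/PRF/5 alone, and the highest HOXB7 points of HuH7 and PLC/PRF/5 are the libraries labelled in ovo replicate 3.

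18 members did not pass the filter, HOXA2, HOXA5, HOXB1, HOXB2, HOXB4, HOXB8, HOXB9, HOXC4, HOXC8, HOXC11, HOXC12, HOXD3, HOXD4, HOXD8, HOXD10, HOXD11, HOXD12 and HOXD13. Each had at least 1 read in some library. The highest single values among them were 2.45 scaled CPM for HOXA5, in HepG2 in ovo replicate 3, and 2.42 for HOXD11, in PLC/PRF/5 in ovo replicate 2. HOXB2 was read in PLC/PRF/5 alone, at 0.113 to 1.17 in ovo and 0.571 to 0.679 in vitro, as was HOXB9, at 0.302 to 0.668 in ovo and 0.117 to 0.291 in vitro. HOXB8, HOXD3 and HOXD12 each had reads in 1 library, HuH7 in ovo replicate 4 for HOXB8 and HepG2 in ovo replicate 2 for the others.

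Genes that work with the HOX clusters were read from the same fit, in which 43.4% of all genes were called in HuH7, 17.3% in PLC/PRF/5, 52.0% in Hep3B and 25.0% in HepG2. Of 8 tested cofactors of the TALE class, which bind DNA together with HOX proteins, 5 were higher in ovo in HuH7 and 3 in PLC/PRF/5, and 3 were higher and 1 lower in Hep3B and likewise in HepG2. The median change of the 8 was 0.93 in HuH7, 0.37 in PLC/PRF/5, 0.29 in Hep3B and 0.34 in HepG2 on the log2 scale. MEIS1 rose by 1.77 ± 0.24 in HuH7, 1.35 ± 0.24 in HepG2 and 0.92 ± 0.24 in PLC/PRF/5. MEIS2 and PKNOX1 were higher in all 4 lines, and PKNOX1 rose most in Hep3B, by 1.96 ± 0.29. Of 27 tested Polycomb genes, 4 were higher and 9 lower in HuH7, 4 and 2 in PLC/PRF/5, 4 and 10 in Hep3B, and 1 and 5 in HepG2. That is 48.1% of the list in HuH7, 22.2% in PLC/PRF/5, 51.9% in Hep3B and 22.2% in HepG2, close to the shares of all genes. PHC3, a subunit of the complex that binds the Polycomb mark, was higher in all 4 lines, by 1.69 ± 0.17 in Hep3B. SUZ12, a core subunit of the complex that writes the mark, fell by 1.84 in HuH7 (SE 0.47), where PHC1 rose by 2.42 ± 0.20. The median change of the 27 was -0.23 in HuH7, -0.06 in PLC/PRF/5, -0.61 in Hep3B and -0.27 in HepG2.

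Of 18 MLL and trithorax genes, 7 were higher and 2 lower in HuH7, 7 and 6 in Hep3B, and 2 and 2 in HepG2, while 7 were higher in PLC/PRF/5. That is 50.0% of the list in HuH7, 38.9% in PLC/PRF/5, 72.2% in Hep3B and 22.2% in HepG2. KMT2A, the gene of MLL itself, rose in all 4 lines, by 1.12 ± 0.14 in HuH7, 1.02 ± 0.14 in PLC/PRF/5, 0.76 ± 0.14 in Hep3B and 0.72 ± 0.14 in HepG2. Of 14 tested genes of the retinoic acid axis, a pathway that switches on HOX genes from the head end, 7 were higher and 1 lower in HuH7, 6 and 2 in Hep3B, and 2 and 3 in HepG2, while 2 were lower in PLC/PRF/5, or 57.1%, 57.1%, 35.7% and 14.3% of the list in that order. CRABP2, a carrier of retinoic acid, rose by 3.03 ± 0.36 in HuH7 and 2.93 ± 0.36 in Hep3B and fell by 2.76 in HepG2 (SE 0.36). ALDH1A1, an enzyme that makes retinoic acid, fell by 3.71 in Hep3B, 3.10 in HuH7 and 2.31 in HepG2 (SE 0.84 each). The median change was 0.08 in HuH7, 0.77 in PLC/PRF/5, -0.10 in Hep3B and 0.10 in HepG2 for the MLL and trithorax genes, and 0.96, 0.17, 0.24 and 0.08 for the retinoic acid genes. Of 8 tested neighbours of the clusters, 1 was higher and 3 lower in HuH7, 1 and 2 in Hep3B, and 1 and 1 in HepG2, while 1 was lower in PLC/PRF/5, which is 50.0%, 37.5%, 25.0% and 12.5% of the list in that order. HIBADH, which lies beside HOXA, rose by 1.21 ± 0.14 in Hep3B and fell by 0.82 in PLC/PRF/5 (SE 0.14) and by 0.51 in HuH7 (SE 0.14). 2 of 11 ParaHOX and linked homeobox genes were tested, and MNX1, a homeobox gene of motor neurons and pancreas, rose in all 4 lines, by 2.93 ± 0.36 in Hep3B and 2.27 ± 0.36 in HuH7.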

How the data were processed

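RNA from 28 libraries was read with a targeted amplicon panel, from 500 ng of total RNA each, per the labels' protocols. The authors deposited 1 signal value per amplicon and library, scaled to a library total of 500000, and the submitters' processing notes name hg38. Which aligner and counter were used is not given in the sources used here. Values moved in steps of 1 read, and whole reads were recovered from them, with at least 99.968% of values within 0.01 of a whole number. 1 damaged value, of a keratin gene and not of a HOX gene, was set to what its library lacked from that total, and 7 repeated symbols were kept apart.

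Levels were scaled by TMM (edgeR 4.0.16 in R 4.3.3), and log2(scaled CPM + 1) was fitted with limma 3.58.1, with a mean-variance trend, in 1 model of 8 groups with 20 residual degrees of freedom. Genes with too few reads (edgeR's filter, minimum 10 reads) were left out, which kept 13100 of 18961, and p-values were adjusted over those by Benjamini-Hochberg, with calls at adjusted p under 0.05. The tests are two-sided. The step was tested on simulated counts. Because an amplicon's own properties affect its reads, levels were not compared between genes.

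Amplicon sequences came from the deposited table and were matched to GENCODE 29 transcripts, with blastn 2.17.0 for near matches. A few genes and 1 amplicon sequence are not reported here. The members and the lists were chosen with earlier results of these data known. Genes named with full statistics were the 3 highest members of each cluster, up to 3 members with the largest called change up and down in each line, up to 4 called farthest from the other lines in both conditions, and those called in opposite directions. Of the other lists, up to 4 called members per comparison were eligible. DESeq2 1.42.0 and edgeR's quasi-likelihood test on whole reads, other scalings, filters and pseudocounts, the replicate block and each library left out were the alternatives. No 2 libraries of a group agreed within sampling noise (chi-square per gene of 1.65 or more over 36 pairs), so each was counted once.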

Additional observations from a re-analysis of the deposited data

Results flagged for a closer look

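A single library stood far from the other 3 of its group in 5 of 47 groups of 4 examined, beyond Dixon's limit for 4 values. That limit is set to be passed in about 1 in 20 groups of independent values. The groups share libraries and some hold few reads, so 5 of 47 is not read as an excess. HOXB7 was at 20.8 scaled CPM in HuH7 in ovo replicate 3, against 4.00 to 6.56 in the other HuH7 tumours, and at 25.7 in PLC/PRF/5 in ovo replicate 3, against 13.9 to 14.3. HOXC9 was at 3.06 in HepG2 in ovo replicate 3, against 0.774 to 0.968. HOXA13 was at 0.612 in HepG2 in ovo replicate 3, with 0 reads in the other HepG2 tumours, and HOXB5 at 0.515 in HuH7 in ovo replicate 3, against 0.0851 to 0.129. All 5 were in libraries labelled replicate 3. In each line this library had the lowest TMM factor of the tumours, 0.683 in HepG2, 0.762 in HuH7 and 1.09 in PLC/PRF/5. A lower factor gives a higher scaled CPM. Without TMM scaling, HOXB7 of replicate 3 was at 28.1 CPM in PLC/PRF/5, against 15.3 to 20.8, and at 15.8 in HuH7, against 5.12 to 5.95. Dixon's limit was not applied to these unscaled values. Olfactory amplicons with a read stood at 28.2% in HepG2 in ovo replicate 3, against 5.70% to 51.8% in the other HepG2 tumours, at 27.5% in HuH7 in ovo replicate 3, against 21.2% to 31.9%, and at 46.1% in PLC/PRF/5 in ovo replicate 3, against 11.4% to 21.8%. Replicate 3 thus had the highest share in PLC/PRF/5 but not in HepG2 or HuH7, and the part of these reads was not tested.

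The response to growth in ovo differed between lines for 12 members, by limma's F test with Benjamini-Hochberg adjustment. Among them, the adjusted p was 0.0198 for HOXA3, 0.00606 for HOXA4, 0.0037 for HOXA7, 0.000199 for HOXA10 and 0.00132 for HOXA13. It was 0.0155 for HOXB7, 0.0132 for HOXB13, 0.00344 for HOXC5, 0.00188 for HOXC9, 1.74e-07 for HOXD1 and 1.35e-07 for HOXD9. For HOXB13 and HOXD9, 21 libraries at 0 reads enter the spread behind these p-values, so they are not read as a difference in response. HOXC5 passed the filter through the HuH7 tumours alone, and its p is not read so either. For HOXD1, the other lines, at 0 to 4 reads per library, enter the spread as well.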

How the results depend on the processing

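Of 1779 values of single members under 13 other settings, 1677 kept their direction and call, 93 kept their direction but were not called, and 9 reversed. HOXA4 in Hep3B tumours against cultures was -0.20 with total counts alone and -0.0648 with GC and length trends removed, where HOXC13 was -0.0468. In Hep3B against the other lines in vitro, HOXA10 was 0.0778 by edgeR and 0.0785 by DESeq2, and HOXD1 0.55 by edgeR and 0.43 by DESeq2. HOXB6 in HuH7 against the other lines in ovo was 1.12 by edgeR and 0.34 by DESeq2. None of the 9 was called (adjusted p of 0.205 or more). The causes were not tested.

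Counts of called members moved by over 1.5 times in these cases. In ovo against in vitro, Hep3B had 2 calls with a pseudocount of 5 CPM, 8 with GC and length trends removed and 1 with only its own libraries fitted, which leaves fewer samples, against 4 as reported, and HepG2 had 8 by DESeq2 against 4. Against the other lines, Hep3B in vitro had 6 by edgeR and 11 by DESeq2 against 17, and HepG2 in ovo 13 by edgeR against 20. Line by condition had 6 by edgeR against 12, and no value with only the libraries compared. Active members at 5 CPM or more in every library were 1 in ovo and 2 in vitro in HepG2, 2 and 2 in Hep3B, 10 in ovo in PLC/PRF/5 and 7 in vitro in HuH7, and with total counts alone Hep3B had 3 in ovo.

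With 1 library left out at a time, the calls in ovo against in vitro numbered 4 to 6 in HepG2, 3 to 6 in Hep3B, 10 to 15 in HuH7 and 5 to 11 in PLC/PRF/5, the lowest without PLC/PRF/5 in vitro replicate 3, and 10 to 14 for line by condition. Without the 4 in ovo libraries labelled replicate 3 they numbered 5, 4, 11 and 11, and 14. The replicate numbers did not pair the samples (correlation of deviations -0.0967 to 0.457 over 12 pairs, over 0.1 in 4). With the replicate block, the calls numbered 5 in HepG2, 5 in Hep3B, 14 in HuH7, 11 in PLC/PRF/5 and 13 for line by condition. Depth limits the members below 3 reads, whose presence or absence was not detectable.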
